A study of Arabidopsis thaliana with 12 samples.

Results

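Among the genes of Arabidopsis thaliana seedlings, 71 stood at least a set distance to the same side of the wild type in all 3 other genotypes. They were chosen by their level in CPM, counts scaled to a common sum over all loci of a library, with the 18S ribosomal RNA locus AT3G41768 left out of that sum. Of 28775 loci, 15600 had a mean of at least 5 CPM in at least 1 of the 4 genotypes and were kept. For each genotype, L was the log2 ratio of its mean CPM to the wild type mean, with 0.5 CPM added to both. A gene was taken when L was at least 0.8 in all 3 genotypes and all 9 of their libraries lay above the 3 wild type libraries, or when L was -0.8 or lower in all 3 and all 9 libraries lay below. The first rule took 30 genes (0.192% of the kept loci), called higher here, and the second took 41 (0.263%), called lower. The distance of each gene from the wild type thus chose the genes, and is given as a description with no test.

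Messenger RNA of whole plants of the strain Ws was sequenced at 14 days of age after growth on MS medium, with 3 libraries for each of 4 genotypes. These were Ws itself, plants with GRF1 joined to GFP behind the viral 35S promoter (GRF1), plants with GRF3 joined to GFP behind the same promoter (GRF3), and plants labelled as carrying mutations in GRF1, GRF2 and GRF3 together (grf1/grf2/grf3). The 35S promoter is active in most plant tissues. The number of transgenic lines, the alleles of the mutant and the hour of harvest are not stated by the labels. A complete-block layout is described there, but not whether replicates of 1 genotype were grown in different blocks, so p-values measure only the spread between these libraries, which may be technical.

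Growth-regulating factors (GRFs) are plant transcription factors that promote cell proliferation in young organs, act together with GIF co-activators, and are in part kept low by the microRNA miR396. Abscisic acid is the hormone of seed maturation and drought. Under its influence, bZIP factors bind ACGTG-containing elements (ABREs) in the promoters of late embryogenesis abundant (LEA) and dehydrin genes, whose proteins protect cells that lose water. The circadian clock, in turn, times many genes to the evening through a short promoter motif called the evening element.

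Gene counts ran from 2820223 to 14277574 per library. Ws replicate 3 stood apart from all other libraries. It had the fewest counts, the largest share of counts on AT3G41768 (31.8%, against 13.1 to 24.5% elsewhere), and the most distant place on the first principal components. The 22 touch and early wound response genes on a list summed to 958 CPM in it, against 262 and 296 in the other Ws libraries and 167 to 341 in the rest. Since every gene here is defined by its distance from the Ws libraries, each group below is given with and without Ws replicate 3.

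Both directions held well-separated genes and genes near the border of the rule. The median L of the 30 higher genes was 1.55 in GRF1, 1.18 in GRF3 and 1.18 in grf1/grf2/grf3. For the 41 lower genes it was -1.88, -1.31 and -1.47, against 0.07, 0.05 and 0.04 for all kept loci. GRF1 plants were farthest from Ws in 22 of the 30 higher and 27 of the 41 lower genes, while grf1/grf2/grf3 plants were nearest in 15 and 24. Over all kept loci, L was at least 0.8 at 591 in GRF1, 287 in GRF3 and 258 in grf1/grf2/grf3. It was -0.8 or lower at 436, 267 and 400 in the same order. GRF1 had the most such loci in both directions, so its place is not particular to these genes. All 9 libraries lay above the Ws libraries, by any amount, at 631 kept loci (4.04%) and below them at 458 (2.94%). Just inside the limit lay AT1G57540, AT5G09830 and AT1G25530 with a smallest L of 0.80, 0.83 and 0.84, and SUS3, AT2G01020 and GLYI7 at 0.80, 0.82 and 0.83 in size. Just outside lay NAC080, AT5G64830 and AT3G22850 at 0.80, 0.80 and 0.79, and AT3G28550, AT2G07806 and NAP at 0.80, 0.80 and 0.78.

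**Figure D1:**
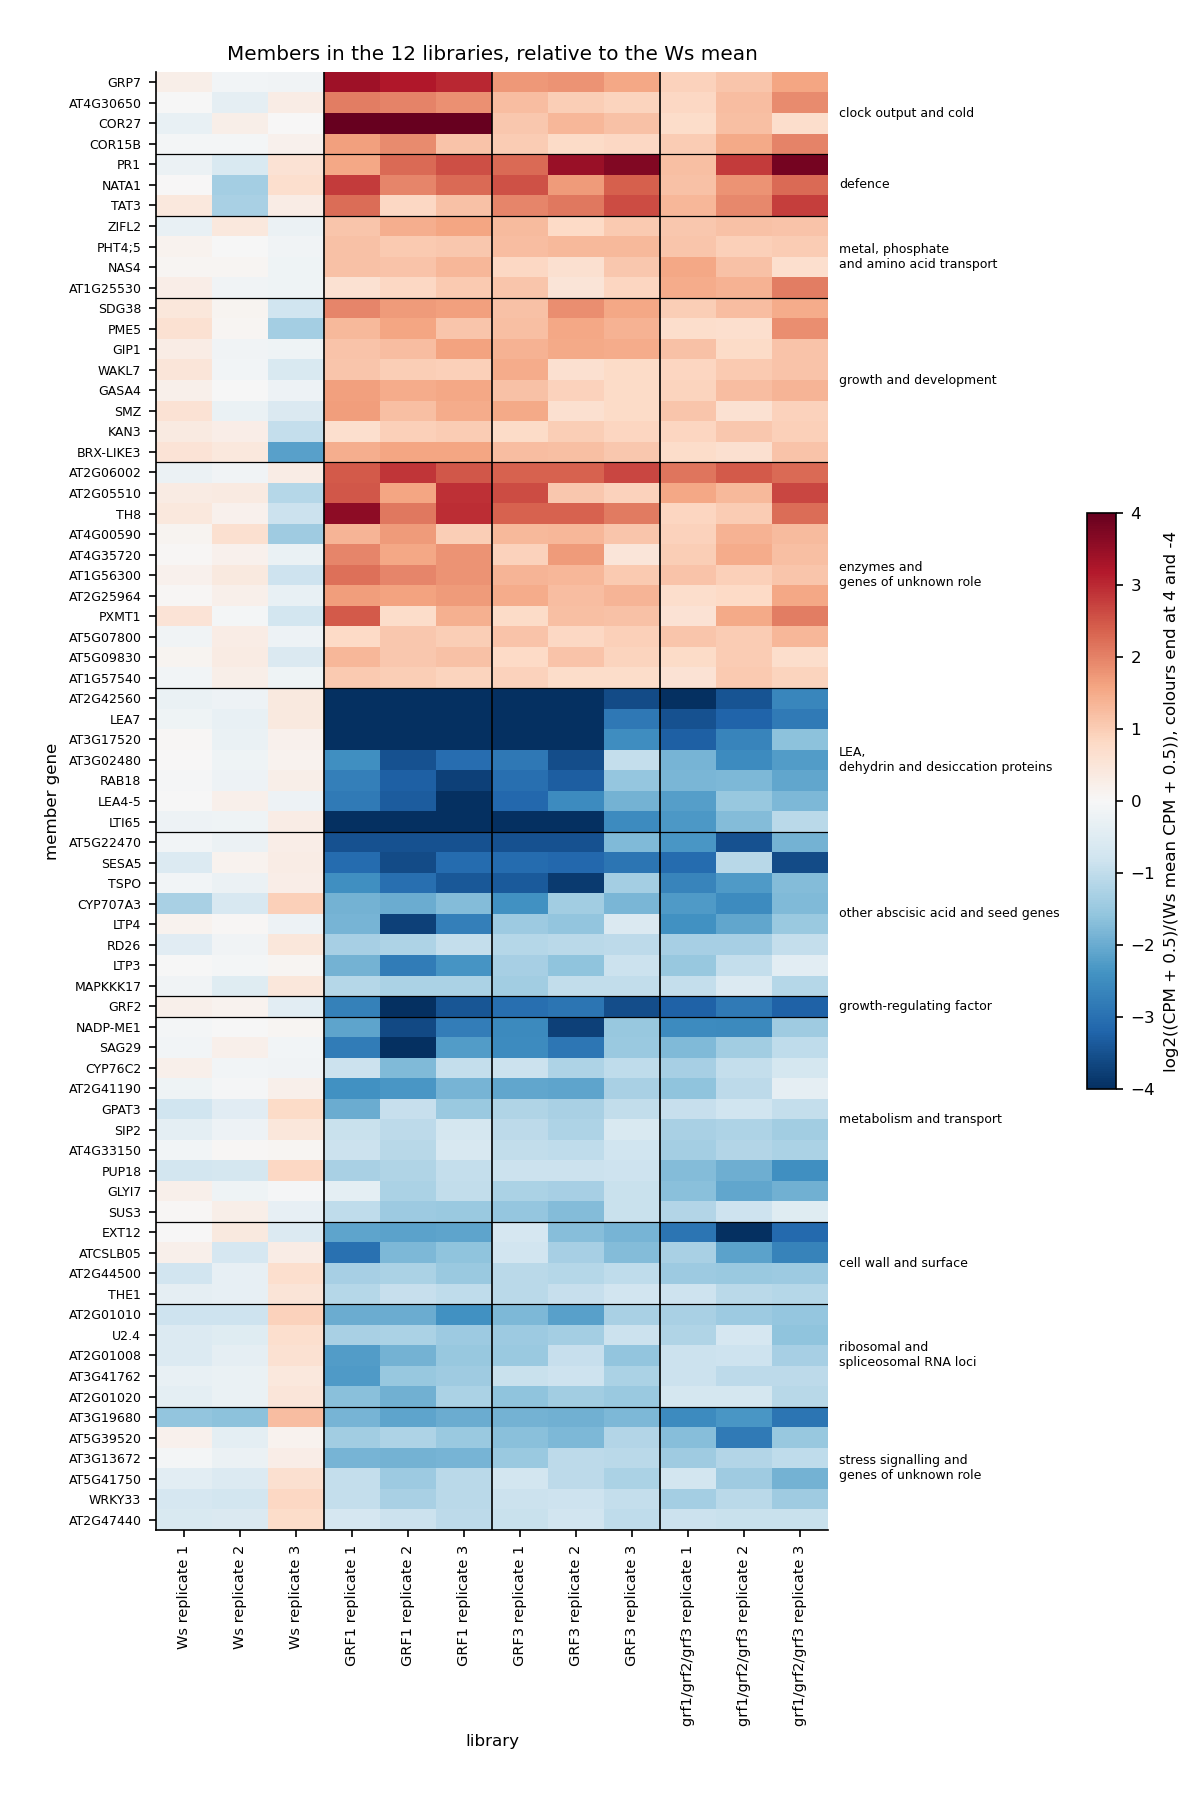
Each row is 1 of the 71 genes and each column a library; colour gives log2 of the library's CPM over the Ws mean CPM, with 0.5 added to both, ending at 4 and -4. The LEA genes form the darkest blue block, COR27 and GRP7 are darkest red in GRF1, and Ws replicate 3 is warm in lower genes such as CYP707A3, GPAT3, PUP18 and AT3G19680.

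In the edgeR fit over all 17938 genes tested, which reuses the same contrasts and therefore lends the genes no support, 62 of the 71 were called against Ws in GRF1 (background 21.8%), 54 in GRF3 (background 12.4%) and 42 in grf1/grf2/grf3 (background 4.88%). The last count became 26 without grf1/grf2/grf3 replicate 2 and 23 without replicate 3 of that genotype. All 71 passed the filter on low counts. The 3 comparisons share their Ws libraries.

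GRF2, one of the 3 targeted transcription factor genes (AT4G37740, minus strand, chr4:17725337-17727909 in TAIR10.1), was itself among the lower genes. Its transcript stood at 15.8, 15.03 and 9.88 CPM in Ws replicates 1 to 3. It stood at 1.65, 0.397 and 0.821 CPM in GRF1, at 1.24, 1.37 and 0.698 in GRF3 and at 1.01, 1.49 and 0.984 in grf1/grf2/grf3. The lowest Ws library was 5.99 times the highest of the other 9, the widest gap of all 71 genes, and the 3 non-Ws genotypes overlapped fully. L was -3.27, -3.14 and -3.08, and -3.45, -3.31 and -3.26 without Ws replicate 3. GRF2 levels in both overexpressors thus overlapped those in plants labelled mutant for it. These levels rest on 3 to 11 counts per library, too few to order the 3 genotypes.

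The other targeted genes were no members. GRF1 transcript stood at 150.4, 189 and 240 CPM in the GRF1 libraries, at 10.8 to 11.8 in GRF3, at 9.66 to 13.1 in grf1/grf2/grf3 and at 19.3 to 22.4 in Ws. GRF3 transcript stood at 241 to 282 CPM in the GRF3 libraries. In grf1/grf2/grf3 it was 30.6, 29.0 and 25.8 CPM, within the Ws range of 20.1 to 34.9. The level of GRF3 thus gave no sign of the labelled mutation, and the libraries are named by their label throughout. Counts do not tell a disrupted transcript from an intact one, nor transgene from endogenous transcripts.

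LEA and dehydrin genes had some of the largest distances from Ws. All 7 remained members without Ws replicate 3. LEA7 (AT1G52690), a LEA protein gene, stood at 173, 158 and 253 CPM in Ws. It stood at 5.78, 0.530 and 0.821 CPM in GRF1, at 4.13, 3.58 and 26.5 in GRF3 and at 16.9, 20.8 and 26.9 in grf1/grf2/grf3. Every non-Ws library lay far below Ws, GRF1 lay below grf1/grf2/grf3 with no overlap, and GRF3 replicate 3 stood well above its 2 sister libraries. L was -6.08, -4.03 and -3.15, and -5.85, -3.80 and -2.91 without Ws replicate 3.

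RAB18 (AT5G66400), an abscisic acid-responsive dehydrin, stood at 289, 261 and 353 CPM in Ws. The GRF1 libraries held 45.0, 30.9 and 22.2 CPM. The GRF3 libraries held 36.7, 29.9 and 103 CPM and the grf1/grf2/grf3 libraries 84.7, 87.0 and 70.3. The mutant libraries lay above all GRF1 libraries, and GRF3 replicate 3 again stood above both sister libraries and here above the mutant libraries too.

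LTI65 (AT5G52300), also known as RD29B and widely used as a reporter of abscisic acid signalling, also differed between GRF1 and grf1/grf2/grf3. Ws libraries held 93.4, 95.7 and 132 CPM and grf1/grf2/grf3 libraries 21.1, 31.6 and 49.8. GRF3 libraries held 4.33, 2.39 and 18.1 CPM and GRF1 libraries 3.92, 1.46 and 3.696. Here the mutant libraries lay above all 6 overexpressor libraries. LEA4-5 (AT5G06760) stood at 21.5, 25.3 and 19.2 CPM in Ws, 0.616 to 2.68 in GRF1, 2.06 to 5.58 in GRF3 and 4.43 to 7.44 in grf1/grf2/grf3.

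The remaining 3 LEA genes have no common symbol. AT2G42560 was counted 133, 124 and 64 times in the Ws libraries, 2, 0 and 0 times in GRF1, 0, 1 and 12 times in GRF3 and 0, 5 and 42 times in grf1/grf2/grf3. AT3G17520 was counted 289, 211 and 97 times in Ws, 4, 2 and 2 times in GRF1, 3, 3 and 54 times in GRF3 and 21, 18 and 155 times in grf1/grf2/grf3. AT3G02480 kept more of its transcript, with 86.3 to 106 CPM in Ws, 8.08 to 17.3 in GRF1, 7.85 to 49.5 in GRF3 and 16.4 to 26.4 in grf1/grf2/grf3. In each of the 7 genes GRF3 replicate 3 was the highest GRF3 library.

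**Figure D2:**
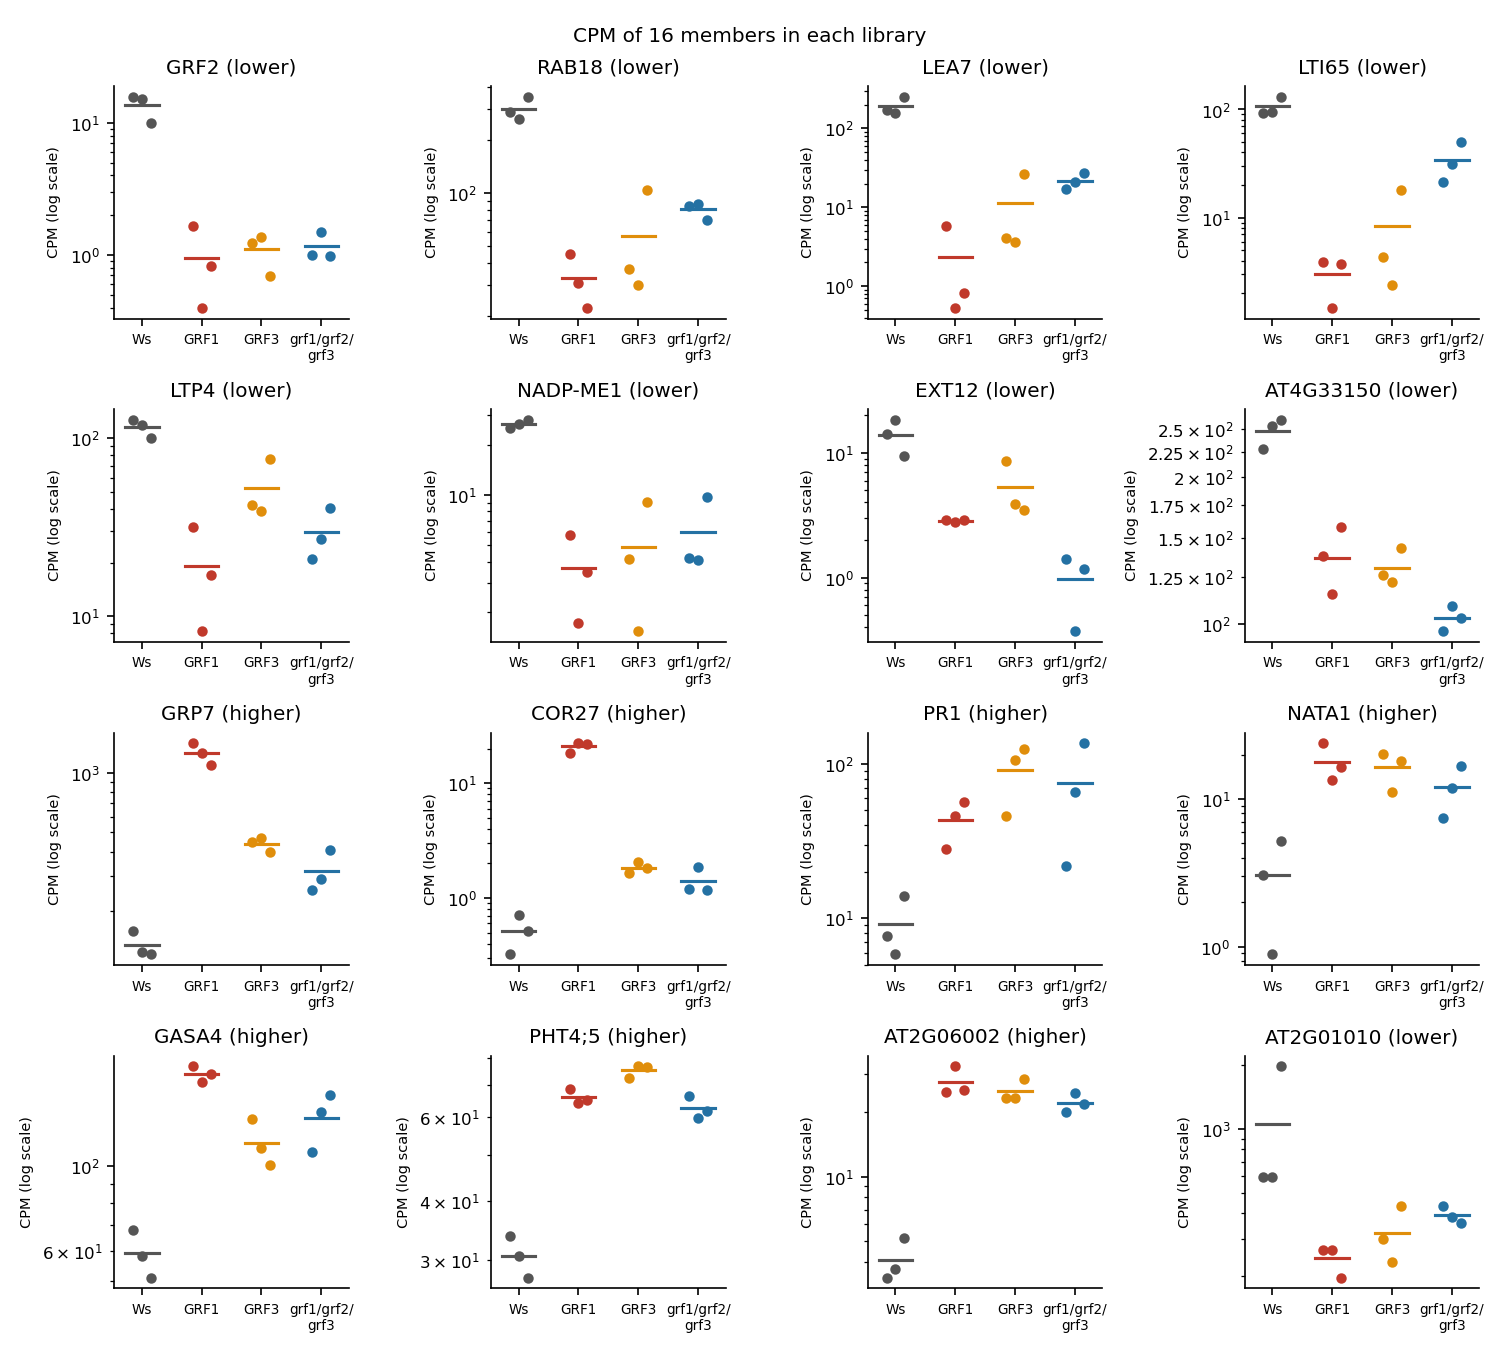
CPM on a log scale for 16 of the genes in each library, with bars at the group means. Ws lies apart from the other genotypes in every panel, as the rule required. LTI65, EXT12, AT4G33150, GRP7, COR27 and GASA4 were also called different among the other genotypes, and the single high Ws point of AT2G01010 is replicate 3.

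The promoters of RAB18, LTI65, LEA7 and LEA4-5 are shown because ABREs, of the 8 motifs searched, exceeded their share among kept loci by the most percentage points in the lower genes. Each runs from 250 bases before to 50 bases after the annotated gene start, 5′ to 3′ on the gene's strand, read from the RefSeq assembly TAIR10.1. Capitals mark ACGTGNC, the ABRE core searched on both strands. The windows are chr5:26519398-26519697 (minus strand), chr5:21236771-21237070 (plus), chr1:19619474-19619773 (plus) and chr5:2090381-2090680 (minus).
RAB18: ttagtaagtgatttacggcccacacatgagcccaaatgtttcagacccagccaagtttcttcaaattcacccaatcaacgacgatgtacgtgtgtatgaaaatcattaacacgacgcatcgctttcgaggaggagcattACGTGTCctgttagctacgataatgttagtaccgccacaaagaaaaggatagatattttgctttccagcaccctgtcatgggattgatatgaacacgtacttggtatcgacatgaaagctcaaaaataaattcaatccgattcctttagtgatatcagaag
LTI65: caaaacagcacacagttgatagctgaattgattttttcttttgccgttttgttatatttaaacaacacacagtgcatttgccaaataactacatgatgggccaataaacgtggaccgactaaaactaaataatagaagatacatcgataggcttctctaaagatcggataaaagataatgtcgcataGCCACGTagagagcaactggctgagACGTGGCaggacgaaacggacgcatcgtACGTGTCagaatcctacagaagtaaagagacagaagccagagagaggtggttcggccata
LEA7: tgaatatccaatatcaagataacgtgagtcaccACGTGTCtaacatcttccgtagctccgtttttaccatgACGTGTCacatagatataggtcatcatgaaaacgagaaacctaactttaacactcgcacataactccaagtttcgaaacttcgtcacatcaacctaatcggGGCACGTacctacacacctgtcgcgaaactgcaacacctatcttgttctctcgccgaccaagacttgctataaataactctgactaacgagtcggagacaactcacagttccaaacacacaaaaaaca
LEA4-5: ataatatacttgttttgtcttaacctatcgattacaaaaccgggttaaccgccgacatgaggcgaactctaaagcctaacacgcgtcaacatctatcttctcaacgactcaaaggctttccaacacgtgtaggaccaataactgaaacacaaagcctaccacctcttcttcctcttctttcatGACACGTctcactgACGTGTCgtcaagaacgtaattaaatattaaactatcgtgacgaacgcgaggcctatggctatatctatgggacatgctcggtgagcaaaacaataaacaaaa
RAB18 held 1 such match in this window, LTI65 and LEA7 held 3 and LEA4-5 held 2. Of the 41 lower genes, 15 (36.6%) held at least 1, against 4 of 30 higher genes (13.3%), 11.8% of the 15589 kept loci with a window and 8.96% of all 37897 annotated nuclear genes. The G-box CACGTG, which shares ACGTG with the ABRE core, stood in 13 lower genes (31.7%), 3 higher genes (10%) and 9.12% of kept loci. CTGACA, a site described for GRF proteins, stood in 5 lower genes (12.2%), 1 higher gene (3.33%) and 6.84% of kept loci. CGTAC, the core of copper response elements, stood in 12 lower (29.3%) and 4 higher genes (13.3%) against 12.4% of kept loci. The W-box TTGACN was found in 23 lower genes (56.1%), 14 higher genes (46.7%) and 50.2% of kept loci. The phosphate element GNATATNC and the heat shock element GAANNTTC were found in at most 4 genes of either direction. A match describes letters in this window and is no evidence that a factor binds there.

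A further 8 lower genes have roles around abscisic acid or seeds, and 3 of them remained members without Ws replicate 3: TSPO, LTP3 and LTP4. TSPO, a stress-induced membrane protein of the secretory pathway, stood at 8.36, 7.60 and 10.9 CPM in Ws, 0.411 to 1.24 in GRF1, 0.171 to 3.21 in GRF3 and 1.01 to 2.33 in grf1/grf2/grf3. LTP4 and LTP3, neighbouring genes for lipid transfer proteins that lie 2997 bp apart on chromosome 5, stood at 100.4 to 127 and 99.9 to 110.3 CPM in Ws. LTP4 held 8.21 to 31.8 CPM in GRF1, 38.7 to 76.7 in GRF3 and 20.9 to 40.7 in grf1/grf2/grf3. LTP3 held 14.6 to 27.9, 33.8 to 57.2 and 36.4 to 78.2 CPM in the same order. The mean was lowest in GRF1 for both, but GRF3 lay above grf1/grf2/grf3 for LTP4 and below it for LTP3, and the libraries of these genotypes overlapped. The genes are close relatives, whose counts could be split by reads common to both.

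Another 3 genes of this kind, CYP707A3, RD26 and MAPKKK17, were lost without that library. CYP707A3 encodes an enzyme that breaks down abscisic acid, RD26 a drought-induced NAC transcription factor and MAPKKK17 a kinase of the abscisic acid cascade. CYP707A3 stood at 2.41, 4.07 and 13.5 CPM in Ws, with replicate 3 far above the others. Its L was -1.86, -1.82 and -2.15, and -0.92, -0.88 and -1.21 without that library. CYP707A3 thus still passed the limit for L, but its Ws mean of 3.24 CPM then fell under the minimum of 5 CPM. RD26 stood at 34.2, 42.3 and 64.5 CPM in Ws and 18.4 to 23.8 in all other libraries, with L of -1.17, -1.09 and -1.19. MAPKKK17 lay at 3.54 to 7.28 CPM in Ws and 1.65 to 3.35 elsewhere.

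SESA5, which encodes a seed storage albumin, and AT5G22470, a poly ADP-ribose polymerase gene, were near the floor outside Ws. SESA5 stood at 3.54, 6.01 and 6.76 CPM in Ws, 0 to 0.206 in GRF1, 0.171 to 0.279 in GRF3 and 0.201, 2.23 and 0 in grf1/grf2/grf3. AT5G22470 was counted 29, 24 and 12 times in Ws, 0 times in all 3 GRF1 libraries, 0, 0 and 8 times in GRF3 and 3, 0 and 11 times in grf1/grf2/grf3. Both left the set without Ws replicate 3, because their mean then fell under the minimum of 5 CPM and not because they moved towards Ws. Beside these, 21 seed and embryo marker genes were summed, of which 1 was at 0 in every library and 3 passed the minimum. SESA5 itself is among those 3, so the sum is not independent of it. The marker genes summed to 17.2 to 81.3 CPM in Ws, 3.05 to 4.11 in GRF1, 3.35 to 5.98 in GRF3 and 3.82 to 66.3 in grf1/grf2/grf3. Their part in the lower seed genes was not tested. In bulk tissue, fewer cells of a type and less RNA per cell cannot be told apart.

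The lower genes were only a slice of the abscisic acid response on a list of 36 tested genes. Of these, 8 were lower members and 1, COR15B, was a higher member. Among the 27 others, edgeR called 2 higher (background 10%) and 13 lower (background 11.8%) in GRF1 against Ws, and 0 higher (background 6.07%) and 11 lower (background 6.34%) in GRF3. In grf1/grf2/grf3 it called 4 higher (background 2.11%) and 1 lower (background 2.77%). Their median log2 difference from Ws was -0.67 in GRF1, -0.48 in GRF3 and 0.10 in grf1/grf2/grf3, against -0.00, 0.00 and 0.01 for all genes. Genes far below Ws in all 3 genotypes were members by construction, so the nonmembers hold few of them.

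Those nonmembers also differed between the genotypes. Of the 27, 18 were lower and 1 higher in GRF1 than in grf1/grf2/grf3 (background 17.6%, both directions), and 18 were lower and 0 higher in GRF3 than in grf1/grf2/grf3 (background 14.9%). Examples are P5CS1, a proline synthesis gene, at -1.65 (SE 0.13, adjusted p from edgeR = 3.69e-08) and -1.01 (SE 0.13, adjusted p from edgeR = 3.17e-05) on the log2 scale. NCED3, which makes abscisic acid, differed by -1.90 (SE 0.38, adjusted p from edgeR = 0.00699) and -2.40 (SE 0.40, adjusted p from edgeR = 0.00315). Against Ws, P5CS1 and NCED3 in grf1/grf2/grf3 stood at 0.10 and 0.57 (adjusted p from edgeR = 0.731 and 0.447).

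Metabolic enzymes and transporters made up 10 lower genes, of which 7 remained without Ws replicate 3. NADP-ME1, a malic enzyme that turns malate into pyruvate, stood at 25.1, 26.5 and 28.1 CPM in Ws. It stood at 5.78, 1.72 and 3.49 CPM in GRF1, 4.13, 1.54 and 9.07 in GRF3 and 4.23, 4.09 and 9.66 in grf1/grf2/grf3. The Ws libraries agreed closely, and the 3 other genotypes overlapped. SAG29, the sugar transporter SWEET15, stood at 90.06, 114 and 89.98 CPM in Ws, 4.90 to 20.5 in GRF1, 12.8 to 34.7 in GRF3 and 28.8 to 48.4 in grf1/grf2/grf3.

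Sugar and amino acid genes of this group were shifted by smaller amounts. SUS3, a sucrose synthase gene, stood at 38.0 to 56.4 CPM in Ws and 14.2 to 34.0 in the other libraries. AT4G33150, which encodes the bifunctional enzyme that opens lysine breakdown, stood at 228, 255 and 262 CPM in Ws, 115 to 158 in GRF1, 122 to 143 in GRF3 and 96.6 to 109 in grf1/grf2/grf3. AT2G41190, an amino acid transporter family gene, stood at 51.9 to 67.6 CPM in Ws and at 10.5 to 15.8, 13.3 to 23.4 and 18.7 to 45.2 in GRF1, GRF3 and grf1/grf2/grf3. The glyoxalase family gene GLYI7 was lowest in grf1/grf2/grf3 at 4.09 to 5.63 CPM, against 16.8 to 21.7 in Ws, 7.55 to 14.4 in GRF1 and 7.17 to 10.05 in GRF3. CYP76C2, a cytochrome P450 gene, stood at 13 to 16.6 CPM in Ws and 3.84 to 8.59 elsewhere. SIP2, which splits raffinose, stood at 240.3, 273 and 435 CPM in Ws and 122 to 208 elsewhere. PUP18, of the purine permease family, stood at 15.6, 15.74 and 46.8 in Ws and 4.39 to 14.5 elsewhere. GPAT3, a glycerol phosphate acyltransferase gene, stood at 21.2, 27.1 and 62.4 in Ws and 8.87 to 20.8 elsewhere. In all 3 the highest Ws library was replicate 3, and they were lost without it.

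Of 4 genes of the cell wall and surface, EXT12 and ATCSLB05 remained without Ws replicate 3. EXT12, an extensin gene whose product is a structural wall protein, stood at 14.1, 18.4 and 9.36 CPM in Ws. It stood at 2.89, 2.78 and 2.87 CPM in GRF1, 8.67, 3.92 and 3.49 in GRF3 and 1.41, 0.372 and 1.16 in grf1/grf2/grf3. GRF3 replicate 1 nearly reached the lowest Ws library, and the mutant libraries were below all others. EXT12 was the only member on a list of 38 tested wall genes, mainly expansins, xyloglucan endotransglucosylases and extensins. Of the 37 others, edgeR called 2 higher and 11 lower in GRF1 against Ws. It called 1 and 3 in GRF3, and 4 and 14 in grf1/grf2/grf3. Shares over all genes were 10% and 11.8%, 6.07% and 6.34%, and 2.11% and 2.77% in the same order. The 3 lower calls in GRF3 were near their background. ATCSLB05, of the cellulose synthase-like family, stood at 4.07 to 8.32 CPM in Ws and 0.413 to 3.71 elsewhere. THE1, a receptor kinase that senses wall integrity, stood at 77.5, 80.1 and 142 CPM in Ws and 44.6 to 58.9 elsewhere, and AT2G44500, an O-fucosyltransferase family gene, at 24.3, 33.2 and 67.1 in Ws and 14.4 to 20.4 elsewhere. Beside these, 21 root marker genes, 10 of which passed the minimum and 1 of which was at 0 in every library, summed to 725 to 747 CPM in Ws, 460 to 486 in GRF1, 486 to 619 in GRF3 and 583 to 604 in grf1/grf2/grf3. The part of root tissue in the lower genes was not tested.

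None of 5 ribosomal or spliceosomal RNA loci and their neighbours remained without Ws replicate 3. AT2G01010, annotated as 18S ribosomal RNA, stood at 590.2, 590.1 and 1982 CPM in Ws, 197 to 267 in GRF1, 234 to 432 in GRF3 and 357 to 430 in grf1/grf2/grf3. It forms a cluster at the end of chromosome 2 with AT2G01020, also ribosomal RNA, and AT2G01008, which is annotated as protein coding. AT3G41762, also annotated as protein coding, lies beside the 18S locus AT3G41768 on chromosome 3, and U2.4 is a spliceosomal RNA gene. RNA selected as messenger should hold little ribosomal RNA, and near-identical copies of the ribosomal genes make their counts uncertain. The share of counts on AT3G41768 was highest in Ws replicate 3, at 31.8%, where AT2G01010 and AT2G01020 were highest too. It was 17.96% in Ws replicate 2, within the GRF1 range of 17.35 to 19.4%, although AT2G01010 and AT2G01020 summed to 853 CPM there and to 326 to 364 in GRF1. The part of RNA selection in these loci was not tested.

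The last 6 lower genes were of stress signalling or unknown role, and AT3G13672 and AT5G39520 remained without Ws replicate 3. AT3G13672, of the TRAF-like family, stood at 6.19 to 8.84 CPM in Ws and 1.59 to 3.40 elsewhere, and AT5G39520 at 6.37 to 9.49 in Ws and 0.744 to 3.49 elsewhere. WRKY33, a defence transcription factor also induced by touch, stood at 39.4, 38.0 and 113 CPM in Ws and 23.3 to 35.8 elsewhere. AT3G19680, of unknown role, stood at 22.7, 21.9 and 163 CPM in Ws and 8.77 to 19.5 elsewhere. In both, replicate 3 alone was far above the other Ws libraries. AT5G41750, a disease resistance family gene, and AT2G47440 were of the same kind.

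**Figure D3:**
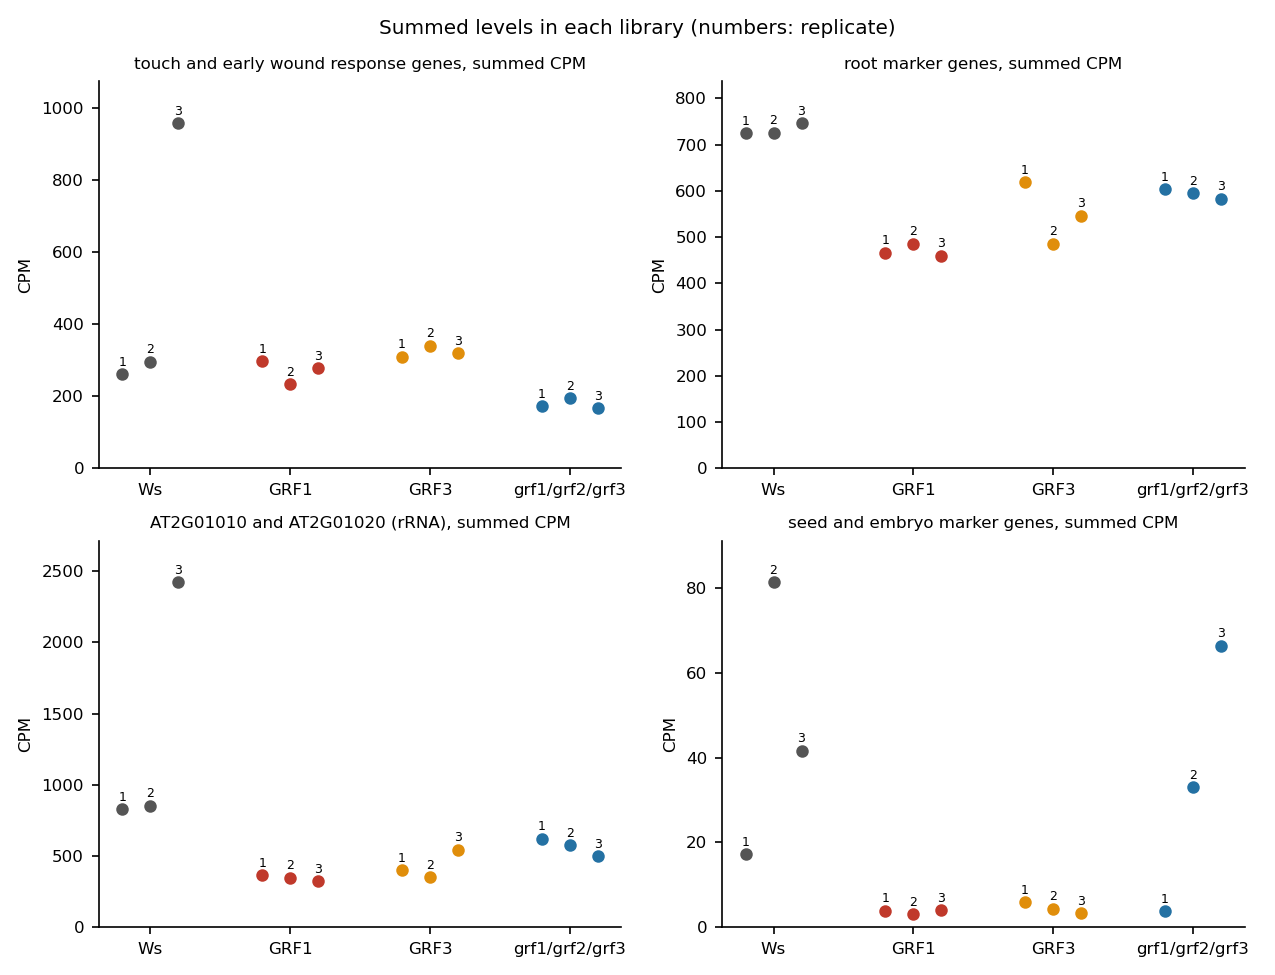
Summed CPM of 4 groups of genes in each library, with replicate numbers over the points. Ws replicate 3 is alone at 958 CPM for touch and early wound genes and at 2423 CPM for the ribosomal loci AT2G01010 and AT2G01020, whereas root markers separate all 3 Ws libraries from the rest and seed markers overlap between Ws and grf1/grf2/grf3.

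Among the higher genes, 4 belong to clock output and cold response, and all 4 remained without Ws replicate 3. GRP7 (AT2G21660), a glycine-rich RNA-binding protein under clock control, stood at 160, 124 and 121 CPM in Ws. It stood at 1408, 1254 and 1093 CPM in GRF1, 447, 469 and 399 in GRF3 and 258, 292 and 408 in grf1/grf2/grf3. GRF1 lay above all other groups, and GRF3 overlapped grf1/grf2/grf3 only through replicate 3 of each. COR27 (AT5G42900), which acts between cold and clock, stood at 0.322, 0.707 and 0.520 CPM in Ws, 18.4, 22.4 and 21.97 in GRF1, 1.65, 2.05 and 1.81 in GRF3 and 1.21, 1.86 and 1.16 in grf1/grf2/grf3. Its Ws counts were 2, 4 and 1, and outside GRF1 its shift of 1.201 in GRF3 and 0.91 in grf1/grf2/grf3 rests on 5 to 13 counts per library.

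COR15B, a chloroplast protein of cold acclimation, stood at 3.86 to 4.68 CPM in Ws, 9.65 to 16.8 in GRF1, 7.34 to 8.87 in GRF3 and 8.85 to 17.7 in grf1/grf2/grf3. It lies 4205 bp from the LEA gene AT2G42560 on chromosome 2, which was shifted the other way. AT4G30650, of the low temperature and salt responsive family, stood at 5.84 to 9.36 CPM in Ws, 27.9 to 32.6 in GRF1, 14.5 to 18.6 in GRF3 and 13.9 to 29.3 in grf1/grf2/grf3. On a list of 29 tested clock genes, GRP7 and COR27 were the only members. Of the 27 others, edgeR called 13 higher and 10 lower in GRF1 against Ws, 7 and 3 in GRF3, and 1 and 0 in grf1/grf2/grf3. Over all genes the shares higher and lower were 10% and 11.8%, 6.07% and 6.34%, and 2.11% and 2.77% in the same order, and the single call in grf1/grf2/grf3 was near its background.

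The promoter of GRP7 is shown because it held several evening elements. It covers the same span of bases around the gene start in TAIR10.1, at chr2:9266508-9266807 on the minus strand, read 5′ to 3′. Capitals mark AAATATCT, searched on both strands.
GRP7: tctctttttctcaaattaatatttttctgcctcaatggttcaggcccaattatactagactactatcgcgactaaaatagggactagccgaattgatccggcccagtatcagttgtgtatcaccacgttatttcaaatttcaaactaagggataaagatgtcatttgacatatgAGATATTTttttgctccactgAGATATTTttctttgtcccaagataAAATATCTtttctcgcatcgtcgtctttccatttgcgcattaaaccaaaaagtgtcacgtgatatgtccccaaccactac
GRP7 held 3 matches, and AT4G30650, AT1G56300 and ZIFL2 held 1 each. The motif stood in 5 of 30 higher genes (16.7%), 3 of 41 lower genes (7.32%) and 6.11% of kept loci.

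All 3 defence genes among the higher members remained without Ws replicate 3, although their libraries scattered. PR1, a secreted protein and the standard marker of salicylic acid responses, stood at 7.72, 5.84 and 14.0 CPM in Ws. It stood at 28.1, 45.7 and 56.9 CPM in GRF1, 45.8, 105 and 124 in GRF3 and 21.7, 66.2 and 136 in grf1/grf2/grf3. The mutant libraries spanned the whole range of both overexpressors, so the genotypes cannot be ordered for PR1. NATA1, a jasmonate-induced acetyltransferase acting on ornithine, stood at 3.06, 0.884 and 5.20 CPM in Ws, 13.4 to 23.9 in GRF1, 11.1 to 20.2 in GRF3 and 7.44 to 16.6 in grf1/grf2/grf3. TAT3, a jasmonate-induced tyrosine aminotransferase, stood at 0.530 to 2.89 CPM in Ws and 3.97 to 16.6 in the other libraries.

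Calls among other genes of these lists were as follows. Of the 12 other tested salicylic acid genes, edgeR called 1 higher and 0 lower in GRF1 against Ws, 0 and 2 in GRF3, and 0 and 0 in grf1/grf2/grf3. PR1 itself was called in GRF3 and not in GRF1 or grf1/grf2/grf3. Of the 23 other jasmonate, wound and ethylene genes, it called 5 higher and 0 lower in GRF1, 5 and 0 in GRF3, and 2 higher and 4 lower in grf1/grf2/grf3. The shares over all genes, higher and lower, were 10% and 11.8% in GRF1, 6.07% and 6.34% in GRF3 and 2.11% and 2.77% in grf1/grf2/grf3, so that 1 of 12 in GRF1 was near the background.

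Transporters and metal genes made up 4 higher genes, of which ZIFL2 and PHT4;5 remained without Ws replicate 3. PHT4;5, a phosphate transporter of plastids, stood at 33.8, 30.6 and 27.6 CPM in Ws, 68.9, 64.4 and 65.1 in GRF1, 72.4, 76.8 and 76.6 in GRF3 and 66.4, 59.9 and 61.9 in grf1/grf2/grf3. Every non-Ws library lay well above every Ws library, with L of 1.097, 1.28 and 1.02. ZIFL2, of the zinc-induced facilitator family, stood at 1.93 to 3.54 CPM in Ws and 4.78 to 8.42 elsewhere. NAS4, which makes the metal chelator nicotianamine, stood at 14.6 to 17.5 CPM in Ws and 25.9 to 48.5 elsewhere. AT1G25530, an amino acid transporter family gene, was highest in grf1/grf2/grf3 at 27.1 to 42.8 CPM, against 14.5 to 22.3 in both overexpressors and 8.84 to 12.2 in Ws.

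Growth and development accounted for 8 higher genes, 4 of which remained. GASA4, a gibberellin-regulated peptide gene, stood at 68.2, 58.0 and 51.0 CPM in Ws, 183, 166 and 175 in GRF1, 133, 112 and 101 in GRF3 and 109, 139 and 154 in grf1/grf2/grf3. GRF1 libraries were the highest and the other genotypes overlapped. PME5, a pectin methylesterase gene, stood at 17.9, 12.2 and 4.16 CPM in Ws and 18.6 to 42.3 elsewhere, so that 1 mutant library nearly touched Ws replicate 1. GIP1, which binds the complex that starts microtubules, stood at 2.08 to 3.06 CPM in Ws and 4.46 to 8.42 elsewhere, and SDG38, a SET domain gene, at 0.520 to 1.93 in Ws and 3.02 to 6.40 elsewhere. SMZ, a repressor of flowering, KAN3, which sets the lower leaf side, WAKL7, a wall-associated kinase relative, and BRX-LIKE3 were lost without Ws replicate 3. In BRX-LIKE3 that library had 0 CPM, against 2.73 and 2.48 in its sister libraries.

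The 11 other higher genes were enzymes or of unknown role, and 7 remained. AT2G06002, annotated as a noncoding RNA, had the largest smallest L of the higher genes. It stood at 3.38, 3.71 and 5.20 CPM in Ws, 24.8, 32.7 and 25.3 in GRF1, 23.3, 23.2 and 28.6 in GRF3 and 19.9, 24.5 and 21.8 in grf1/grf2/grf3. The lowest non-Ws library was 3.83 times the highest Ws library, the widest gap among the 30. TH8, a thioredoxin gene, stood at 1.04 to 3.22 CPM in Ws, 11.5 to 33.0 in GRF1, 11.3 to 14.0 in GRF3 and 4.63 to 12.6 in grf1/grf2/grf3, and AT2G05510, a glycine-rich protein gene, at 3.12 to 9.73 in Ws and 14.65 to 59.5 elsewhere. AT1G56300, a DnaJ-domain chaperone gene, stood at 3.64 to 9.20 CPM in Ws, 25.0 to 33.6 in GRF1 and 13.8 to 18.6 in the other genotypes. It was lost without Ws replicate 3, when its smallest L became 0.79. Also lost were PXMT1, a methyltransferase gene, AT5G09830, of the BolA-like family, and AT1G57540. AT4G00590, AT4G35720, AT2G25964 and AT5G07800, a flavin monooxygenase family gene, remained.

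Features outside the rule were uneven in these genes. Chromosome 2 held 8 of the 30 higher (26.7%) and 12 of the 41 lower genes (29.3%), against 15.4% of kept loci. Among those 12 were AT2G01008, AT2G01010 and AT2G01020, a single cluster at the chromosome end that was lost without Ws replicate 3. Chromosome 1 held 3 of the lower genes (7.32%), against 26.1% of kept loci. Genes with 1 exon made up 20% of the higher and 24.4% of the lower genes, against 12.4% of kept loci, and the exonic length was under 1000 bp in 26.7%, 19.5% and 10.3%. Another annotated gene overlapped 5 higher (16.7%) and 10 lower genes (24.4%), against 31.98% of kept loci. RAB18, LEA7, COR15B and AT1G56300 were among those overlapped. The labels do not state whether the counting used strand, so reads from such partners cannot be told apart.

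Without Ws replicate 3 the rule took 66 genes, 32 higher and 34 lower, and 42 of the original 71 were among them. Of the higher genes 20 remained, and of the lower genes 22. All 71 kept their side in all 3 genotypes, but the smallest L fell to 0.38 for a higher gene (BRX-LIKE3) and 0.13 in size for a lower gene (PUP18). In 10 of the 41 lower genes (24.4%) Ws replicate 3 was at least 2 times the higher of the other Ws libraries, against 1.16% of kept loci, and all 10 were lost without it. In 8 of the 30 higher genes (26.7%) it was at most 0.5 of the lower of them, against 2.17%. Without Ws replicate 1 the rule took 207 genes and without Ws replicate 2 it took 142. In all, 32 members stayed in the set whichever of the 12 libraries was left out.

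**Figure D4:**
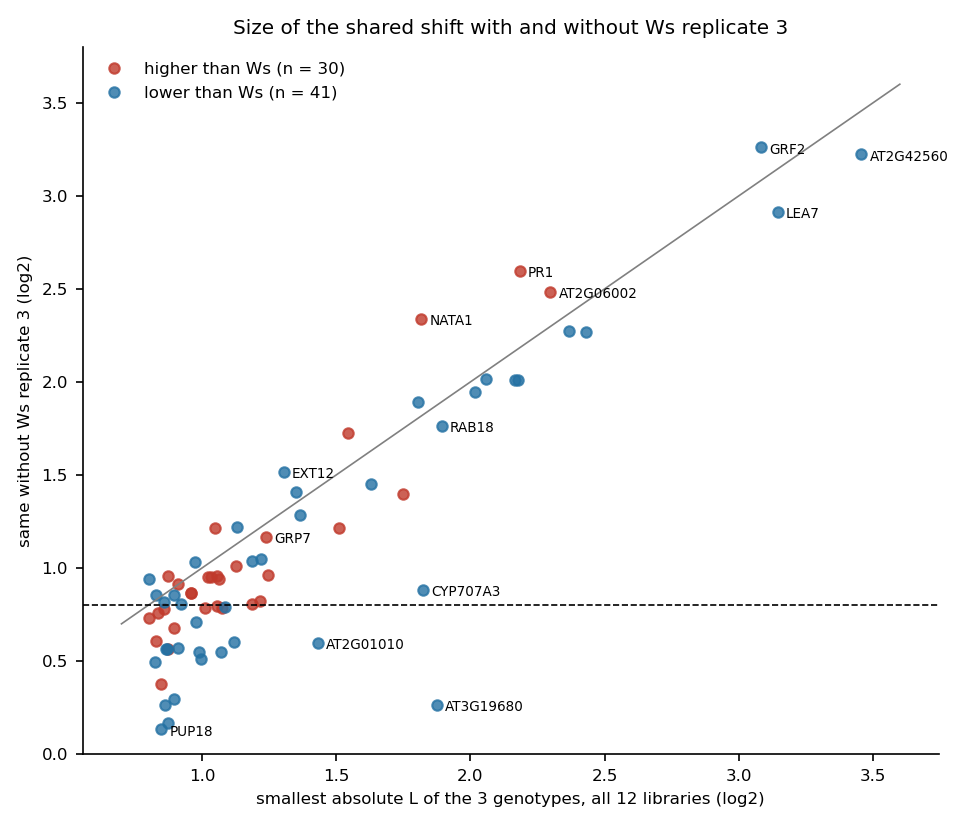
For each of the 71 genes, the smallest absolute L of the 3 genotypes with all 12 libraries (horizontal) and without Ws replicate 3 (vertical); the line marks equality and the dashes the limit of 0.8. LEA7, AT2G42560 and GRF2 stay near the line, while AT3G19680, AT2G01010, CYP707A3 and PUP18 drop far below it.

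The scaling of the libraries also set which genes passed. With edgeR's TMM factors the rule took 24 higher and 44 lower genes, 61 of them among the 71. With the 18S locus kept in the library sum it took 39 higher and 25 lower genes, 52 of them among the 71, and the median L of all kept loci moved to 0.18, 0.21 and 0.08 in GRF1, GRF3 and grf1/grf2/grf3. The share of higher genes was thus larger under that scaling than in the original set of 30 against 41.

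The differences among the 3 non-Ws genotypes were not used by the rule and were tested in the edgeR quasi-likelihood fit of all 12 libraries, with Benjamini-Hochberg adjustment over 17938 genes. The rule did use the level of these libraries relative to Ws. Its minimum of 5 CPM could also be met through 1 genotype alone. COR27 met it only through GRF1, with means of 20.9 CPM there, 1.84 in GRF3 and 1.41 in grf1/grf2/grf3. SDG38, SMZ and BRX-LIKE3 also met it only through GRF1. For these genes the choice thus favoured a high level in GRF1. Of the 71 genes, 5 (7.04%) differed between GRF1 and GRF3 (background 1.14%), 15 (21.1%) between GRF1 and grf1/grf2/grf3 (background 17.6%) and 6 (8.45%) between GRF3 and grf1/grf2/grf3 (background 14.9%). In all, 17 genes were called at least once and 54 were not called, which does not show that those 54 were equal in the 3 genotypes. GRP7 was called in all 3 comparisons.

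All 5 genes called between the overexpressors were higher genes that stood higher in GRF1. COR27 differed by 3.46 on the log2 scale (SE 0.24, adjusted p from edgeR = 1.46e-09) and GRP7 by 1.48 (SE 0.13, adjusted p from edgeR = 1.15e-06). The value of COR27 lends no support, as the gene was kept only through its level in GRF1. AT4G30650 differed by 0.90, AT1G56300 by 0.73 and GASA4 by 0.58, with adjusted p-values from edgeR of 0.0164, 0.018 and 0.00507. COR27 and GRP7 were called under every alternative tried. GASA4 lost its call without GRF3 replicate 3, and AT4G30650 and AT1G56300 lost theirs without GRF1 replicate 1, GRF1 replicate 2 or GRF3 replicate 3. AT4G30650 also lost its call without GRF3 replicate 2, and AT1G56300 without GRF3 replicate 1. The count of 5 became 2 without GRF3 replicate 3 and 3 without GRF1 replicate 1 or GRF1 replicate 2. None of the 41 lower genes was called by edgeR between GRF1 and GRF3, which is near the background of 1.14%. Of these 41, 37 had a log2 difference below 0, with a median of -0.44 against -0.01 for all genes. In 28 of the 41, GRF3 replicate 3 was the highest GRF3 library, so this difference may rest in part on that library. GRF1 replicate 1 was the highest GRF1 library in 24. The 41 genes are not independent observations, and the direction of their differences was not tested.

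**Figure D5:**
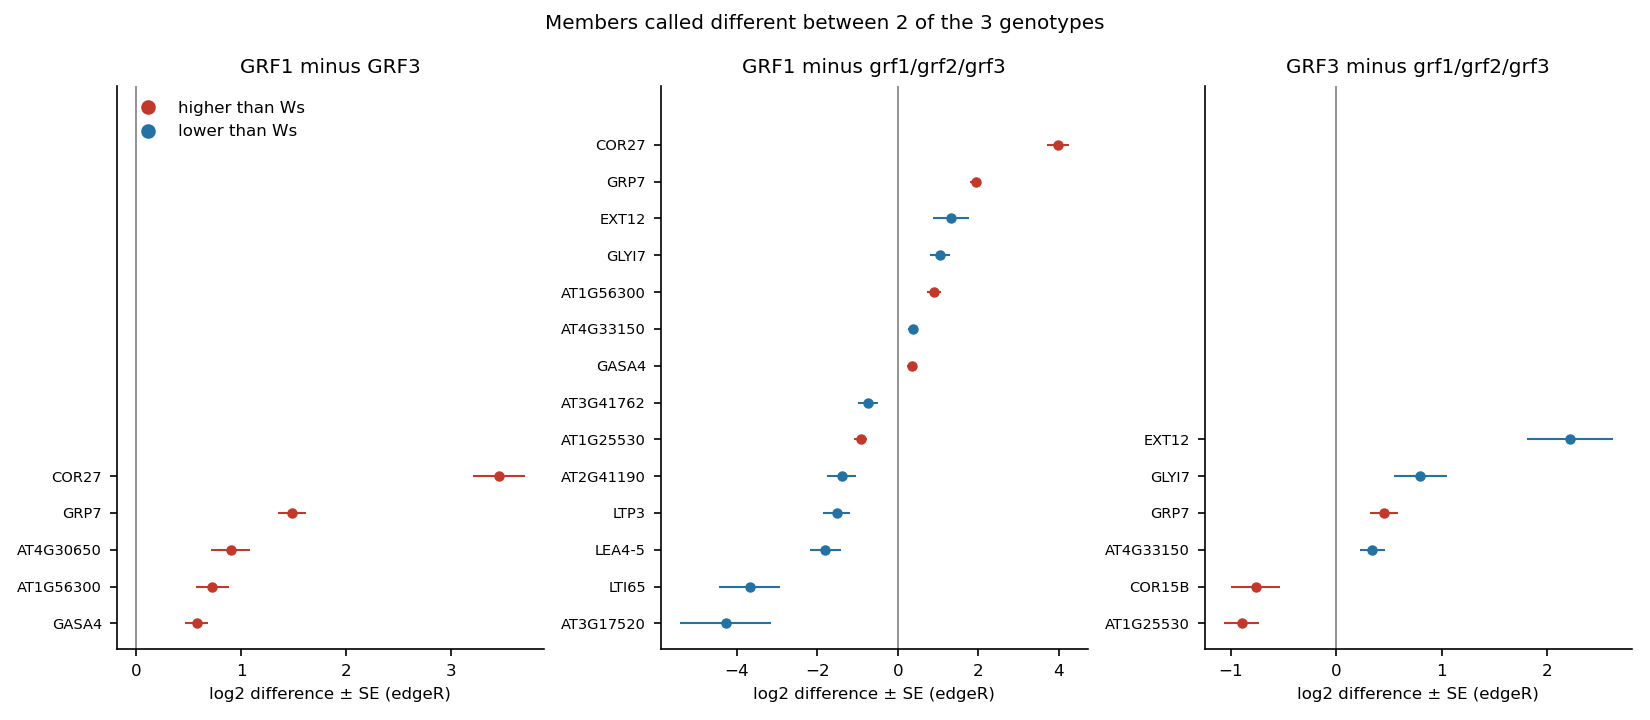
Log2 differences between pairs of non-Ws genotypes for the called members except AT5G22470, which is not drawn, with standard errors from the edgeR fit. Red marks genes higher than Ws and blue genes lower than Ws. COR27 and GRP7 stand to the right in both comparisons with GRF1, the LEA genes AT3G17520, LTI65 and LEA4-5 to the left against grf1/grf2/grf3, and EXT12 to the right in both comparisons with grf1/grf2/grf3.

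GRF1 differed from grf1/grf2/grf3 in 5 higher and 10 lower genes. COR27 stood 3.98 (SE 0.27, adjusted p from edgeR = 2.55e-10) and GRP7 1.93 (SE 0.14, adjusted p from edgeR = 8.92e-09) higher in GRF1 on the log2 scale, followed by AT1G56300 at 0.90 and GASA4 at 0.35. Here too, COR27 was kept only through its level in GRF1. AT1G25530 stood 0.93 lower in GRF1, at -0.93 (SE 0.17, adjusted p from edgeR = 0.000469). Of the lower genes, 7 stood further from Ws in GRF1. LTI65 differed by -3.68 (SE 0.75, adjusted p from edgeR = 0.0118), LEA4-5 by -1.80 (SE 0.38, adjusted p from edgeR = 0.00246) and LTP3 by -1.52 (SE 0.33, adjusted p from edgeR = 0.0143). AT3G17520, AT2G41190 and AT3G41762 differed by -4.28, -1.39 and -0.74, and AT5G22470 was called on 0 counts in GRF1 against 3, 0 and 11. LEA7 missed the threshold, at -3.40 (SE 1.01, adjusted p from edgeR = 0.052).

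The other 3 lower genes called in that comparison stood nearer to Ws in GRF1 than in grf1/grf2/grf3. They were EXT12 at 1.33, GLYI7 at 1.04 and AT4G33150 at 0.37 on the log2 scale. The count of 15 became 7 without GRF1 replicate 1. AT1G25530, AT1G56300, GRP7, LEA4-5, COR27 and LTP3 kept their calls under every alternative tried. GLYI7 lost its call without GRF1 replicate 1, LTI65 without GRF1 replicate 2, and GASA4 without GRF1 replicate 1 or 3 or grf1/grf2/grf3 replicate 1. AT4G33150 lost its call without replicate 1 or 3 of either genotype. AT2G41190 lost it without GRF1 replicate 1 or 2 or grf1/grf2/grf3 replicate 2 or 3, and AT3G17520 without any 1 GRF1 library or grf1/grf2/grf3 replicate 2 or 3. EXT12 and AT3G41762 lost it without any 1 of the 6 compared libraries, AT3G41762 also without GRF3 replicate 1 or 2 or Ws replicate 2. A replicate block ended the calls of both, and RLE factors or no filter on low counts ended that of AT3G41762. AT5G22470 lost it with DESeq2 and without any 1 GRF1 library, grf1/grf2/grf3 replicate 1 or 3 or Ws replicate 1 or 2.

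GRF3 differed from grf1/grf2/grf3 in the same 3 lower genes, with EXT12 at 2.21 (SE 0.41, adjusted p from edgeR = 0.000687), GLYI7 at 0.80 (adjusted p from edgeR = 0.0346) and AT4G33150 at 0.34 (adjusted p from edgeR = 0.0456). Among the higher genes, AT1G25530 stood at -0.90 (SE 0.17, adjusted p from edgeR = 0.000774), COR15B at -0.77 (adjusted p from edgeR = 0.0244) and GRP7 at 0.45 (adjusted p from edgeR = 0.027). EXT12 and AT1G25530 kept their calls under every alternative, whereas GLYI7, COR15B and AT4G33150 lost theirs with DESeq2. GLYI7 and COR15B also lost theirs without GRF3 replicate 3 or grf1/grf2/grf3 replicate 3. The same held for GLYI7 without grf1/grf2/grf3 replicate 2 and for COR15B without GRF3 replicate 2. GRP7 lost its call with upper-quartile factors, with a replicate block and without replicate 1 or 2 of either genotype. AT4G33150 also lost its call with RLE factors and without GRF3 replicate 2 or 3, any 1 grf1/grf2/grf3 library or Ws replicate 2. The count of 6 became 3 without GRF3 replicate 2 or grf1/grf2/grf3 replicate 2, and 10 without GRF3 replicate 3 or Ws replicate 3.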

How the data were processed

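RNA of 12 libraries was sequenced, and the authors deposited raw read counts for each locus in 1 file per library, as whole numbers that were not normalized. Trimmomatic, TopHat2 2.0.14 on TAIR10, HTSeq and DESeq2 were used, per the submitters' processing notes. Strand setting and annotation release of the counting are not given in the sources used here. The 5 rows of each file that name no gene took 57.6 to 76.9% of all counts and were left out. Genotype and replicate were taken from sample titles.

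CPM used the sum of locus counts without AT3G41768. Of 28775 loci, 28009 matched a locus tag of RefSeq TAIR10.1, which gave names, coordinates and promoters. The promoter of 1 higher gene is not reported here. Counts of all 12 libraries were fitted with edgeR 4.0.16 in R 4.3.3 (TMM factors, filterByExpr with a minimum count of 10 and total of 15, robust quasi-likelihood, genotype as the only term, 8 residual degrees of freedom, biological coefficient of variation 0.107). A Benjamini-Hochberg adjusted p under 0.05 over 17938 genes was a call. Standard errors are the log2 difference over the square root of F. The fit was tested on simulated data. With 3 against 3 libraries an exact two-sided permutation p cannot go below 0.1, so none was run. No replicate pair agreed within sampling noise. Counting floors cover counting error only, as there were no molecular identifiers.

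The members, the 20 gene lists and the tests were chosen with earlier results of these data known. Roles were assigned after values were seen. Named genes are members with the largest smallest L, members on a list, members called between genotypes, those nearest the limits and the targeted genes; the remaining members were named to account for the set, and P5CS1 and NCED3 after their values were seen. Of 591 list symbols, 550 matched a locus. Lists without a member or a marker role gave no result used here. Calls among nonmembers are given only for the abscisic acid, clock, salicylic acid, jasmonate and wall gene lists. Alternatives were other normalization factors (RLE, upper quartile), no filter, DESeq2 1.42.0, the 6 compared libraries alone, a replicate block, each library left out, other limits and pseudocounts, and other library sums.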

Additional observations from a re-analysis of the deposited data

Results flagged for a closer look

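These results are listed because the test of the difference between 2 non-Ws genotypes itself passed the threshold in the edgeR fit, so that genes shifted to the same side of Ws were shifted by unequal amounts. Values are log2 differences of the first genotype minus the second. COR27 met the minimum of 5 CPM only through GRF1, so its differences from GRF1 lend no support.

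Between GRF1 and GRF3, the transcripts that stood higher in GRF1 differed as follows: COR27 by 3.46, GRP7 by 1.48, AT4G30650 by 0.90, AT1G56300 by 0.73 and GASA4 by 0.58.

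Between GRF1 and grf1/grf2/grf3, the transcripts that stood higher in GRF1 differed as follows: COR27 by 3.98, GRP7 by 1.93, EXT12 by 1.33, GLYI7 by 1.04, AT1G56300 by 0.90, AT4G33150 by 0.37 and GASA4 by 0.35. Those that stood lower in GRF1 were AT5G22470 at -5.05, AT3G17520 at -4.28, LTI65 at -3.68, LEA4-5 at -1.80, LTP3 at -1.52, AT2G41190 at -1.39, AT1G25530 at -0.93 and AT3G41762 at -0.74. The fitted value of AT5G22470, with 0 counts in all 3 GRF1 libraries, depends on the prior count and is no bound.

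Between GRF3 and grf1/grf2/grf3, the transcripts that stood higher in GRF3 differed as follows: EXT12 by 2.21, GLYI7 by 0.80, GRP7 by 0.45 and AT4G33150 by 0.34. Those that stood lower in GRF3 were AT1G25530 at -0.90 and COR15B at -0.77.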

How the results depend on the processing

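No call between genotypes changed direction under any alternative run. Over the 26 calls between genotypes, 443 alternative values stayed on the same side of the threshold, 76 lost the call and 0 reversed. With the 6 compared libraries alone, edgeR called 24 members between GRF1 and grf1/grf2/grf3 (15 in the fit of all libraries) and 10 between GRF3 and grf1/grf2/grf3 (6). With 1 library left out at a time, the counts ran from 2 to 6 between GRF1 and GRF3, from 7 to 20 between GRF1 and grf1/grf2/grf3, from 3 to 10 between GRF3 and grf1/grf2/grf3, and from 23 to 44 for grf1/grf2/grf3 against Ws. The number of members ran from 66 to 207 over the same leave-outs. It was 160 with a limit of 0.6 for L, 43 with a limit of 1 and 128 with a minimum mean of 1 CPM. Apart from looser and stricter limits by construction, the cause was not tested. DESeq2 lost 4 of the 26 calls. Leaving all 3 ribosomal RNA loci out of the library sum, an alternative chosen after seeing the data, gave the same 71 members. Same-numbered libraries were not treated as paired in the main fit, and whether they shared a block is not known. The correlations of their deviations ran from -0.17 to 0.16 over 18 pairs, and 4 of 12 libraries correlated best with their own number. The 3 pairs over 0.1 were all between GRF3 and Ws, at 0.16, 0.12 and 0.11. A pair of different numbers, between grf1/grf2/grf3 and Ws, reached 0.29. These correlations do not decide whether libraries were paired. With a replicate block, 5, 13 and 7 members were called between genotypes and 63, 54 and 45 against Ws. Depth limits genes such as COR27, SESA5, AT5G22470 and AT2G42560, with 0 to 13 counts in many libraries, where absence cannot be told from a low level. It also limits GRF2, with 3 to 11 counts in every non-Ws library. The higher genes were low in Ws, with a median Ws mean of 4.17 CPM against 23.5 for kept loci. In Ws replicate 3, SDG38 and AT4G00590 had 1 count each and TH8 and SMZ 2 each.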
